A study of Mus musculus with 4 samples.

Results

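The genes described here were 10 genes of enzymes of glycolysis, namely Hk1, Gpi1, Pfkl, Pfkp, Aldoa, Tpi1, Gapdh, Pgk1, Pkm and Ldha, each taken with the gene whose exons overlap its own on the opposite DNA strand. They were chosen by name, and the opposite genes by position. Such an opposite gene was found for 6 of the 10 enzymes, and 22.1% of all protein-coding genes have one. Enzymes and opposite genes together gave 16 members among the 50600 annotated genes of the tables. RNA was sequenced from 4 samples of primary cells of C57BL/6NJ mice labelled T-helper 2 (Th2), a CD4 lineage known for interleukins 4, 5 and 13. They form 1 group, biological replicates 1 to 4, with no treatment, allele or age contrast to compare. The assay is given as total RNA-seq, although the library protocol that the labels link to is named for poly(A)+ RNA. A time of 0 hours in a Th1/Th2 series stands in the file headers but not in the labels, and the 4 samples share 1 donor identifier. Separate mice are not stated, so p-values measure only the spread between these samples, which may be technical.

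Glycolysis splits glucose into pyruvate in the cytosol and yields ATP. Hexokinase traps glucose in the cell, phosphofructokinase commits it to the pathway, aldolase splits the sugar, and pyruvate kinase and lactate dehydrogenase lie at its end. T cells are known to raise their use of this pathway when they are activated. Transcripts read from the opposite strand of a gene are called antisense, and some overlap the exons of the gene they face while others only meet its end.

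Counts were fragments assigned to the exons of a gene on 1 strand. The authors' counting used strand setting 1, which assigns a pair by the direction of its first read. The orientation of the library kit is not given in the sources used here. In a kit whose first read comes from the complement of the RNA, this setting would place the fragments of each gene on the other strand, and the counts printed for a gene would then be those of RNA from its opposite strand. Among all tested pairs of a protein-coding gene and its opposite gene the opposite gene was higher in 60.7%, and among nested pairs in 81%; the part of the strand setting in this was not tested. Every level below is therefore the level on the annotated strand under that setting and is not read as the transcript level of the gene. The libraries held 1452053 to 2351916 counts, and 3 counts, the limit that a count of 0 allows, corresponded to 1.28 to 2.07 CPM (counts scaled to a common library size). The ribosomal RNA locus CT010467.1 took 3.47 to 16.8% of the counts and mitochondrial genes 1.53 to 1.95%. Reads were not tagged by molecule, so intervals and limits describe counting error alone. On their annotated strand, all 12 T cell markers reached a mean TPM of 1 (the count per exon length, scaled to a common sum), and so did 3 of 8 Th2 markers, Gata3, Il4 and Ptgdr2. Of the 3 cytokines that define the lineage, Il4 had 14, 12, 25 and 2 counts, while Il5 and Il13 were at 0 in every library. Markers of other cells were not all at 0: 1 of 4 B cell markers, Cd79a, had counts, at 33.3 to 41.6 TPM, with Ms4a1 and Cd79b among those at 0. The macrophage and dendritic list summed to 101 to 123 TPM from 2 of 5 markers, with Lyz2, Adgre1 and Itgax at 0. Nearly all of that sum was Csf1r (mean 107 TPM), which shares 871 exon bases with Hmgxb3 on the other strand. Of granulocyte and mast cell markers 1 of 4 had counts, at 33.7 to 59.6 TPM, with S100a8, S100a9 and Mpo at 0. The erythroid list held 7.01 to 19.1 TPM from 1 of 4, Alas2 (Hba-a1 and Hbb-bs among those at 0). Alas2 shares 311 exon bases with Apex2 on the other strand, whereas Cd79a, Cd68 and the granulocyte and mast cell marker Cpa3 share none with an opposite gene. The stromal and epithelial list held 5.19 to 9.96 TPM from 2 of 4 (Col1a1 and Col3a1 at 0), and the cytotoxic and NK list 0 to 3.80 from 2 of 6 (Nkg7, Gzmb, Klrb1c and Ncr1 at 0). The part of other cells in the enzyme counts was not tested.

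The 10 enzyme genes together received few counts, and their 6 opposite genes received more. The enzymes held 764, 898, 874 and 630 counts in replicates 1 to 4, which was 407 ± 44.6 CPM (SD, n = 4). The opposite genes held 6017, 5469, 5096 and 4322 counts, or 2694 ± 279 CPM. As shares of a library these were 0.0358 to 0.0454% for the enzymes and 0.233 to 0.298% for the opposite genes. In replicate 1 the exact (Clopper-Pearson) 95% intervals were 0.0334 to 0.0385% and 0.275 to 0.290%, so that counting error is small beside the gap. The groups of values did not overlap. A higher opposite gene was common in these data, at 60.7% of all tested pairs. Nearly all of the opposite counts came from 2 genes, Gm26762 opposite to Gpi1 with 14968 counts in all and Fam57b opposite to Aldoa with 5806, of 20904.

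**Figure D1:**
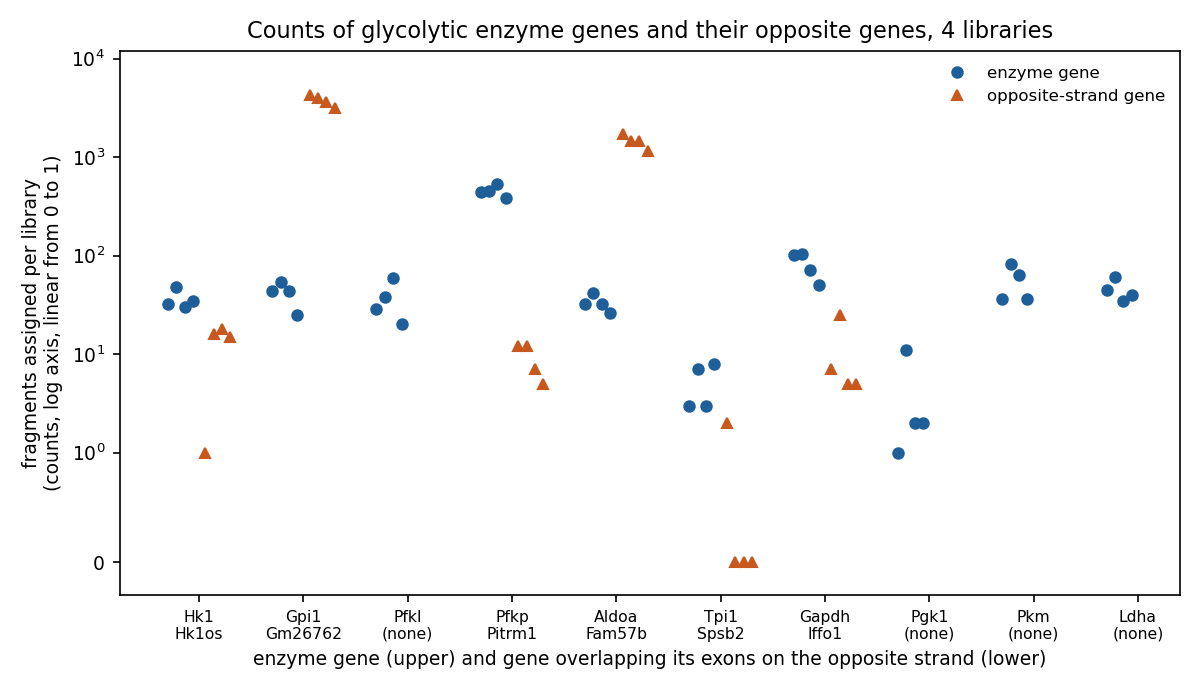
Fragments assigned to each enzyme gene (circles) and to the gene overlapping its exons on the opposite strand (triangles) in the 4 libraries, in the order of replicates 1 to 4 from left to right, on a log axis that is linear from 0 to 1. Gm26762 and Fam57b lie above Gpi1 and Aldoa in every library, Pitrm1 and Iffo1 lie below Pfkp and Gapdh, and 4 enzymes have no exon overlap.

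Gpi1 encodes glucose-6-phosphate isomerase, which turns glucose 6-phosphate into fructose 6-phosphate. It lies on the minus strand of chromosome 7 (mm10, 34201330 to 34230336, identifier ENSMUSG00000036427.5). The gene Gm26762, annotated as a long intergenic non-coding RNA, runs the other way inside it, from 34224755 to 34230236, and all 5284 of its exon bases lie within the span of Gpi1. Exons of the pair share 741 bases in 4 stretches, 11.5% of the exon bases of Gpi1 and 14.0% of those of Gm26762. Of these, 333 bases are coding in Gpi1, 23 are untranslated and 385 belong to exons of transcripts without a coding sequence at that place. The coding overlap falls in exons 1, 2 and 4 of the 18 exons of transcript Gpi1-201, at the 5′ end of the message. The coding parts of these exons are given 5′ to 3′ on the minus strand from the GENCODE transcripts (release 21, mm10), because they are the stretches in which both strands are exonic. Capitals mark bases that lie in an exon of Gm26762, here all of them. Their positions are chr7:34230092-34230213, chr7:34229283-34229373 and chr7:34227118-34227237.
Gpi1-201 exon 1: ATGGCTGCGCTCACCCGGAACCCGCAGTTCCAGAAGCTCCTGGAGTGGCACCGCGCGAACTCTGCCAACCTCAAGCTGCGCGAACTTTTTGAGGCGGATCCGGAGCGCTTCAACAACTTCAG
Gpi1-201 exon 2: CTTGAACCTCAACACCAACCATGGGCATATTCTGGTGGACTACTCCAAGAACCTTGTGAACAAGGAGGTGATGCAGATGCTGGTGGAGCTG
Gpi1-201 exon 4: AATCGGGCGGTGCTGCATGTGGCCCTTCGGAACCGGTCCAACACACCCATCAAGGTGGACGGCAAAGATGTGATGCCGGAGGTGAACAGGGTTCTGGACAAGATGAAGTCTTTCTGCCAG

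Of the fragments assigned to exons of this pair, nearly all went to Gm26762, on the strand opposite to the enzyme. Only 14.0% of the exon bases of Gm26762 are shared with exons of Gpi1. The counts do not say where in Gm26762 its fragments fell. Gpi1 had 44, 54, 44 and 25 counts in replicates 1 to 4, or 4.91 ± 0.685 TPM (SD, n = 4). Gm26762 had 4277, 3944, 3599 and 3148 counts, or 552 ± 52.6 TPM. Every library of Gm26762 lay above every library of Gpi1. Of all tested nested pairs, 81% had the opposite gene higher in edgeR. Per base of exon, Gm26762 was 111-fold higher than Gpi1, a log2 difference of 6.79 with a standard error of 0.19 (edgeR quasi-likelihood test with the library as a block, Benjamini-Hochberg adjusted p = 1.75e-13). The difference was positive in 4 of 4 libraries, and the exact sign-flip permutation gave p = 0.125, the smallest that 4 libraries allow.

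Aldoa encodes aldolase A, which splits fructose 1,6-bisphosphate into its 3-carbon products, and is the main aldolase outside liver and brain. It lies on the minus strand of chromosome 7 (126795234 to 126809108, ENSMUSG00000030695.14). Fam57b, a protein-coding gene whose product belongs to a family linked to ceramide synthesis, runs the other way from 126797668 to 126830219. The genes are arranged head to head, and their exons share 25 bases. The shared bases lie 82.4% of the way along the annotated span of Aldoa, counted from its 5′ end. Those 25 bases are the whole first exon block of the 13 exon blocks of Fam57b, are untranslated in Fam57b, and are coding in exon 3 of the 10 exons of transcript Aldoa-202. They are 0.665% of the exon bases of Aldoa and 0.635% of those of Fam57b, so nearly all of the exon bases of Fam57b lie outside the exons of Aldoa. Exon 3 (chr7:126797644-126797776, minus strand, mm10, GENCODE release 21) is given because it holds the whole overlap, with the 25 shared bases in capitals.
Aldoa-202 exon 3: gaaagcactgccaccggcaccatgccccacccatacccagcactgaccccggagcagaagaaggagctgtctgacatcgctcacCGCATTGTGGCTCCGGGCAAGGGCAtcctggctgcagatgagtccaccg

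Aldoa had 32, 42, 32 and 26 counts, or 6.79 ± 0.715 TPM (SD, n = 4). Fam57b had 1718, 1472, 1467 and 1149 counts, or 287 ± 24.7 TPM, above 99.3% of protein-coding genes. Every library of Fam57b stood above every library of Aldoa. Of all tested head to head pairs, 61.2% had the opposite gene higher in edgeR. The fitted density of Fam57b was 41.9-fold that of Aldoa (log2 difference 5.39, SE 0.20, edgeR adjusted p = 2.51e-12, higher in 4 of 4 libraries, exact sign-flip permutation p = 0.125). The overlap is short, and the tables do not say where in Fam57b its fragments fell.

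**Figure D2:**
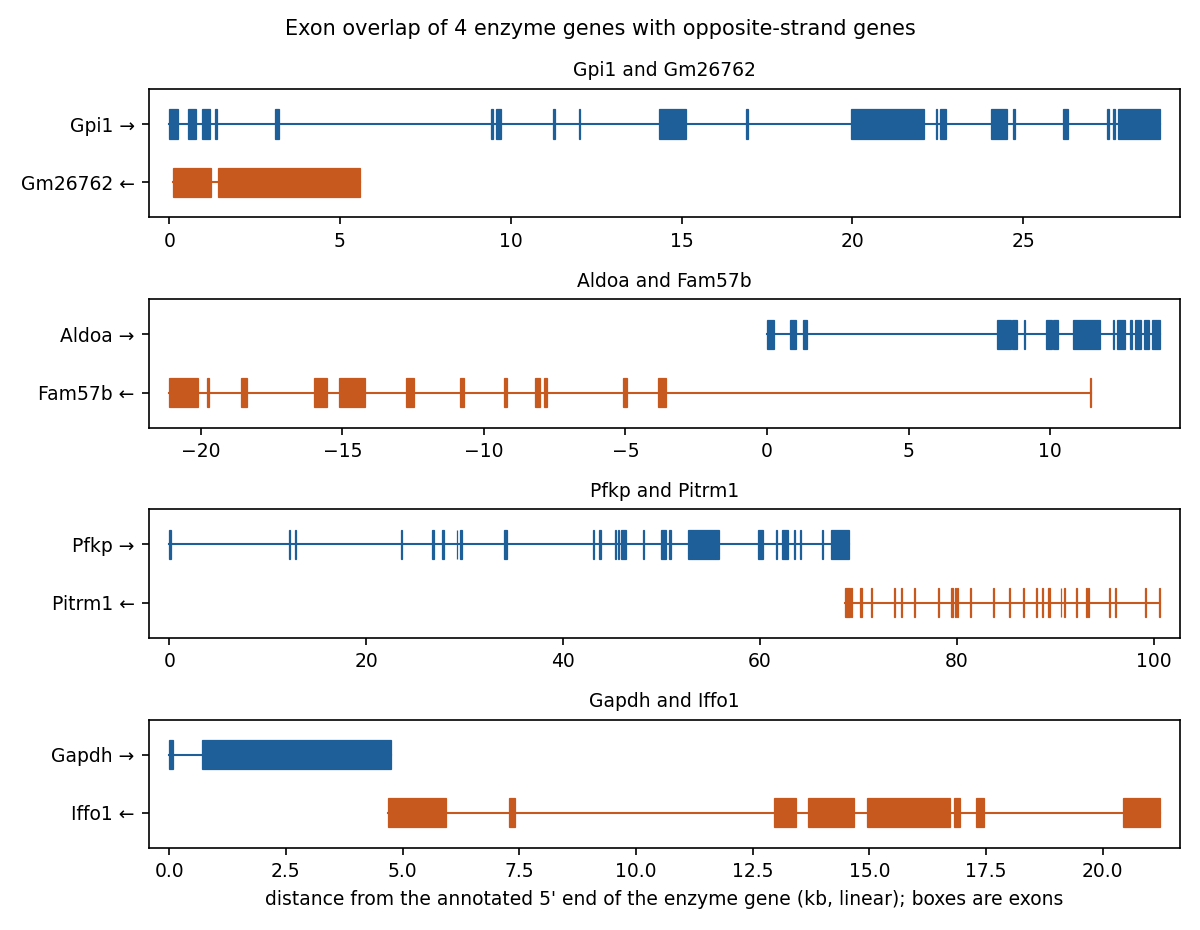
Maps of 4 enzyme genes (blue) with their opposite genes (orange), drawn to a linear scale in kb from the annotated 5′ end of the enzyme gene, with boxes for the merged exons of all transcripts and arrows for the direction of transcription. Gm26762 lies whole within the first part of Gpi1, 1 short exon of Fam57b reaches into Aldoa, and Pitrm1 and Iffo1 meet the 3′ ends of Pfkp and Gapdh.

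Pfkp was the enzyme with the highest level. It encodes the platelet form of phosphofructokinase, the enzyme that phosphorylates fructose 6-phosphate at the committed step, and lies on the minus strand of chromosome 13 (6579768 to 6648777, ENSMUSG00000021196.13). Its 3′ untranslated exon meets that of Pitrm1, a protease that degrades presequences in mitochondria, over 372 bases tail to tail. Pfkp had 441, 452, 534 and 388 counts, or 37.9 ± 6.23 TPM (SD, n = 4), and its 1815 counts were most of the 3166 of the 10 enzymes. Pitrm1 had 12, 12, 7 and 5 counts, or 1.92 ± 0.481 TPM. The direction was opposite to that at Gpi1: the density of Pitrm1 was 18.9-fold lower than that of Pfkp (log2 difference -4.24, SE 0.28, edgeR adjusted p = 1.23e-09, lower in 4 of 4 libraries, exact sign-flip permutation p = 0.125). Of the bases exonic for Pfkp in the authors' annotation or in GENCODE release 21, 70.1% were exonic in both. That share was 77.4% for Aldoa and 100% for the other 8 enzymes. The levels use the exon lengths of the authors' annotation.

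Gapdh, which oxidises glyceraldehyde 3-phosphate, ranked second. It lies on the minus strand of chromosome 6 (125161715 to 125166467, ENSMUSG00000057666.18) and had 101, 103, 71 and 50 counts, or 14.9 ± 2.32 TPM (SD, n = 4). Its 3′ end shares 68 exon bases with Iffo1, an intermediate filament family member on the plus strand. Iffo1 had 7, 25, 5 and 5 counts, or 1.35 ± 1.08 TPM, with replicate 2 above the others. The density of Iffo1 was 11.95-fold lower than that of Gapdh (log2 difference -3.58, SE 0.44, edgeR adjusted p = 1.96e-06, lower in 4 of 4 libraries, exact sign-flip permutation p = 0.125). Gapdh is a gene with many near-identical copies: 163 annotated genes matched at least 50% of its coding sequence at 90% identity or more, of which 161 were in the tables and 154 were annotated as pseudogenes of any kind. Of these copies 27 had counts, 1082 in all against 325 for Gapdh itself. The copy Gm5069 held 669 of them, and its exons share 66 bases with Itpkb on the other strand. The counting command listed no option for reads that map to several places, so the level of Gapdh is uncertain. Ldha had 11 such copies with 1 count in all, Aldoa 6 with 0, Pkm 4 with 3, Pgk1 2 with 0, Gpi1 1 with 0 and Tpi1 1 that was not in the tables, and Hk1, Pfkl and Pfkp had none.

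Hk1 encodes hexokinase 1, the form of the first step found in most tissues, and lies on the minus strand of chromosome 10 (62268855 to 62379908, ENSMUSG00000037012.18). Hk1os, annotated as antisense, lies wholly inside it and shares 157 untranslated bases with its exons (62340256 to 62340412), 1.84% of the exon bases of Hk1 and 10.1% of those of Hk1os. Hk1 had 32, 48, 30 and 35 counts, or 3.34 ± 0.823 TPM, and Hk1os had 1, 16, 18 and 15, or 6.57 ± 4.28 TPM (SD, n = 4). Per base of exon the members of this pair were not separated: the log2 difference was 0.75 with SE 0.58 (edgeR adjusted p = 0.226, higher in 3 of 4 libraries, exact sign-flip permutation p = 0.625). Replicate 1, with 1 count of Hk1os, stood apart, and without it the log2 difference was 1.27 (edgeR adjusted p = 0.0431). Without division by exon length the difference changed sign, to -1.69 (edgeR adjusted p = 0.0120), because Hk1 has 8532 exon bases and Hk1os 1556.

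Tpi1, the isomerase that interconverts the 3-carbon sugars made by aldolase, had few counts. It lies on the minus strand of chromosome 6 (124810586 to 124814296, ENSMUSG00000023456.14) and had 3, 7, 3 and 8 counts, or 1.58 ± 1.06 TPM (SD, n = 4). Spsb2, which encodes a SOCS box protein and shares 34 untranslated bases with it tail to tail, had 2 counts in replicate 1 and 0 in the other 3. The pair had under 10 counts per library on average and was not tested, and no difference between its strands could be resolved at this depth (exact sign-flip permutation p = 0.25).

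Pfkl, Pgk1, Pkm and Ldha had no exon overlap with a gene on the other strand. Pfkl, the liver form of phosphofructokinase on the minus strand of chromosome 10 (77986947 to 78010083, ENSMUSG00000020277.10), had 29, 38, 59 and 20 counts, or 4.19 ± 1.76 TPM (SD, n = 4), and its nearest opposite gene, 1810043G02Rik, lies 42 bases away with 92, 67, 97 and 62 counts. Pgk1, phosphoglycerate kinase, which makes the first ATP of the pathway, lies on the X chromosome (106187100 to 106203699, plus strand, ENSMUSG00000062070.12) and had 1, 11, 2 and 2 counts, or 1.31 ± 1.35 TPM. Its mean rested on replicate 2, without which it was 0.641 TPM. Its nearest opposite gene, Taf9b, lies 3184 bases away and had 16, 19, 13 and 8 counts. Pkm, pyruvate kinase of muscle and most other tissues, lies on the plus strand of chromosome 9 (59656368 to 59679375, ENSMUSG00000032294.17) and had 36, 82, 64 and 36 counts, or 8.34 ± 2.66 TPM. The gene Gm49759 overlaps exons of Pkm by 767 bases on the same strand and had 2, 1, 3 and 0 counts. Ldha, the lactate dehydrogenase chain that favours lactate formation, lies on the plus strand of chromosome 7 (46841475 to 46855627, ENSMUSG00000063229.15) and had 45, 61, 35 and 40 counts, or 10.6 ± 2.22 TPM. Its nearest opposite gene, Gm9392, lies 20058 bases away and had 36, 32, 39 and 21 counts, and that of Pkm, Senp8, lies 54884 bases away. Among these 4 enzymes the TPM ranges of Pkm and Ldha overlapped, while Pgk1 lay below Ldha in every library.

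The order of the enzymes by mean TPM was Pfkp, Gapdh, Ldha, Pkm, Aldoa, Gpi1, Pfkl, Hk1, Tpi1 and Pgk1, with a median of 5.85 TPM. All 10 reached a mean of 1 TPM, Pgk1 through replicate 2 (0.641 TPM without it), and 34.0% of 21764 protein-coding genes did. Of the 9 steps in this order, 4 had 1 sign in all 4 libraries. These were Pfkp over Gapdh (log2 difference 1.34 ± 0.46, SD, n = 4), Gapdh over Ldha (0.49 ± 0.37), Aldoa over Gpi1 (0.46 ± 0.24) and Hk1 over Tpi1 (1.21 ± 0.54), each with an exact sign-flip permutation p of 0.125, the smallest possible. Neighbours in the other 5 steps did not differ beyond their spread.

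**Figure D3:**
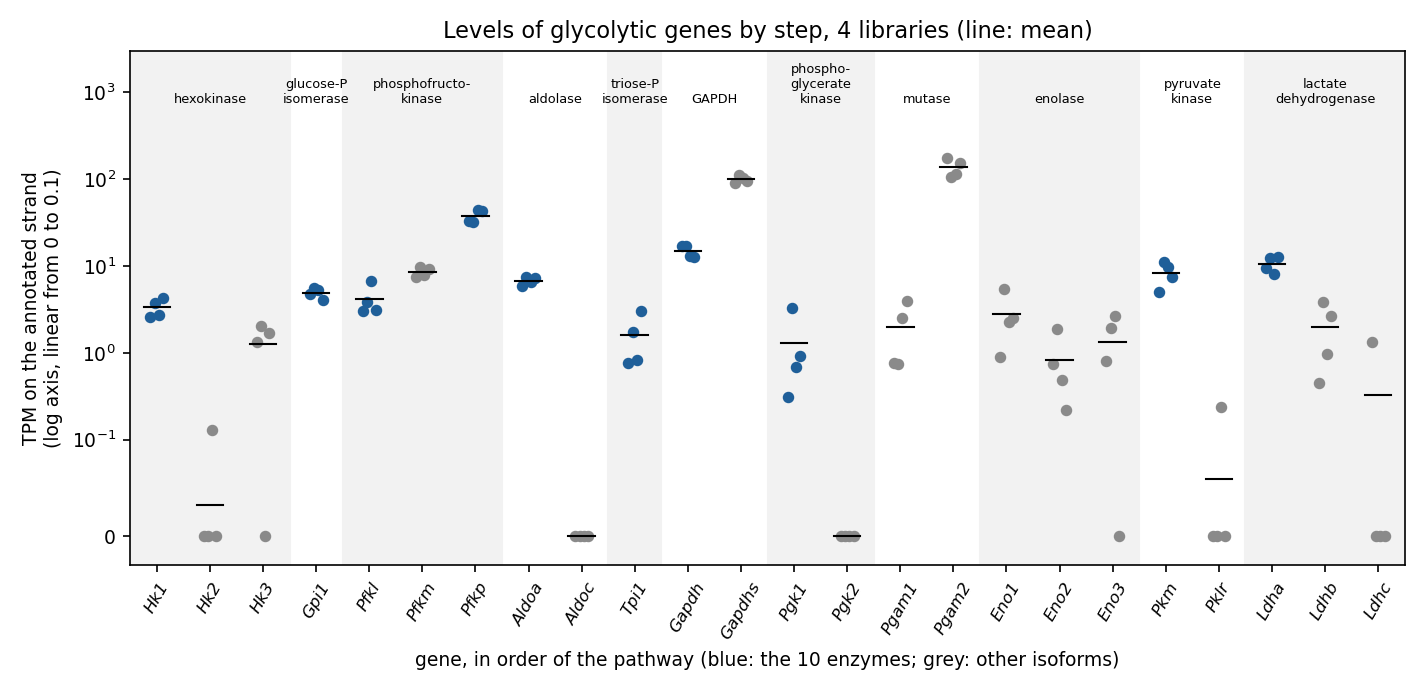
TPM on the annotated strand of the 10 enzyme genes (blue) and of other isoforms (grey) in the 4 libraries, grouped by step of the pathway, with the mean as a line, on a log axis that is linear from 0 to 0.1. Pfkp stands above Pfkm and Pfkl, while Gapdhs and Pgam2, at means of 100 and 136 TPM, stand above Gapdh and Pgam1.

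Within a step, 1 isoform often held most of the counts. Of the phosphofructokinases, Pfkp was 8.83-fold higher per exon length than Pfkl (exact 95% interval 7.46 to 10.5) and 4.36-fold higher than the muscle form Pfkm (3.65 to 5.25), in 4 of 4 libraries each. Hk1 was 2.61-fold higher than Hk3 (1.68 to 4.20), Hk2 had 1 count in all, and Ldha was 5.37-fold higher than Ldhb (3.22 to 9.59). Aldoc and Pgk2, forms of brain and testis, and Eno1b had 0 counts in every library, Ldhc had 3 in all, and Pklr had 1. At other steps the gene for the form of another tissue had the higher level on its annotated strand. Which isoform the cells used is not read from these counts. Gapdhs, the sperm form of Gapdh, had 206, 268, 218 and 147 counts and was 6.63-fold higher per length than Gapdh (5.82 to 7.56). Pgam2, the muscle form of phosphoglycerate mutase, had 212, 131, 124 and 122 counts against 2, 2, 6 and 7 for Pgam1 and was 75.5-fold higher (46.8 to 131). Gapdhs shares 162 exon bases with Tmem147os on the other strand, which had 6 counts in all, and the nearest opposite gene of Pgam2, Dbnl, is 678 bases away. Ldhd, which acts on D-lactate, reached 348 ± 25.1 TPM (SD, n = 4) and shares 2246 exon bases with Znrf1. Eno1, the enolase of most tissues, had 7, 43, 16 and 13 counts, 2.77 ± 1.88 TPM, and was 3.14-fold higher than Eno2 (1.94 to 5.29). Over the muscle form Eno3 it was 1.96-fold higher (1.09 to 3.85), in 3 of 4 libraries.

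Set against all overlapping pairs of the annotation, the enzyme pairs pointed in both directions. Among 3410 tested pairs of a protein-coding gene and its opposite gene, 60.7% had the opposite gene higher and 29.4% lower at an adjusted p of 0.05 in edgeR, with a median log2 difference of 2.56 (quartiles -1.73 and 5.92). Of the 5 enzyme pairs tested, 2 had the opposite gene higher (Gpi1 and Aldoa), 2 lower (Pfkp and Gapdh) and 1 neither (Hk1). In either direction 90.1% of all pairs passed, so that passing the test does not set the enzyme pairs apart. Of the 648 nested pairs, the arrangement at Gpi1 and Hk1, 81% had the opposite gene higher and 12.5% lower. Head to head pairs, as at Aldoa, were higher in 61.2% and lower in 28.1% of 1058. Of the 1563 tail to tail pairs, as at Pfkp and Gapdh, 52.7% had the opposite gene higher and 36.3% lower. The enzyme pairs were part of these totals and the arrangements were not tested against each other.

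**Figure D4:**
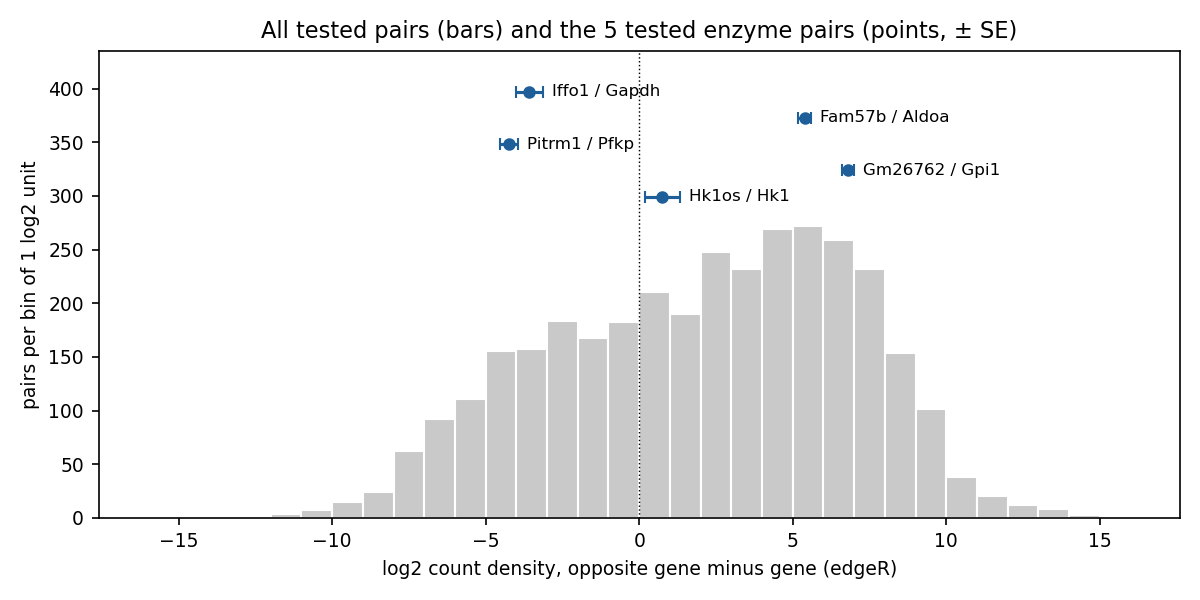
Number of tested pairs in bins of 1 log2 unit of the difference in count density, opposite gene minus gene (bars, 3410 pairs), with the 5 tested enzyme pairs as points with their standard errors at arbitrary heights. Pfkp and Gapdh lie to the left of 0 and Gpi1 and Aldoa to the right, all within the range that other pairs cover.

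Opposite genes of other genes of glucose use were also higher at some and lower at others. Of 58 listed transporters, isoforms, regulators and enzymes of side branches, 31 reached a mean of 1 TPM (53.4%, against 34.0% of protein-coding genes), 9 were at 0 in every library, and the median was 1.19 TPM against 0.144 over protein-coding genes. An opposite-strand exon overlap was present in 19 of them (22.1% of all protein-coding genes have one). In 14 tested pairs the opposite gene was higher in 9 and lower in 5, with a median log2 difference of 4.09, beside the 60.7% higher, 29.4% lower and median of 2.56 over all pairs, and nothing particular to the list is read from these counts. The largest differences were at Txnip, a regulator of glucose uptake (log2 difference 8.34, 81579 counts of Gm15441 against 493), and at Pgam5 (255-fold, 5763 counts of Gm26718 against 39), a mitochondrial phosphatase named for its likeness to the mutases. Higher opposite genes also faced Hif1a, the hypoxia-inducible regulator of glycolytic genes (log2 difference 7.68, 4182 counts of Gm15283 against 82), and Pdha1, a subunit of pyruvate dehydrogenase (4.91, 10106 counts of Map3k15 against 302). Slc2a1, the glucose transporter GLUT1, was also lower than its opposite gene Gm12868, by 5.44. Lower opposite genes faced Ldhd (-4.18, 705 counts of Znrf1 against 9704), Pfkfb2, which sets the level of an activator of phosphofructokinase (-4.11), Pfkm (-3.21) and Gapdhs (-6.84). Those 9 edgeR differences passed an adjusted p of 0.05. On their own annotated strand Rpe, of the pentose phosphate pathway, Txnip and Pdhb, of pyruvate dehydrogenase, had 33.5 ± 5.61, 29.5 ± 10.5 and 11.7 ± 3.03 TPM (SD, n = 4).

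No member was called more variable between libraries than genes of like count. In an edgeR test of spread above the trend, 16 of 5755 genes passed (0.278%), and of the 10 members that could be tested none did, none had an unadjusted p under 0.05 and the lowest was 0.175, for Pfkp. Their spread was 0.119 to 1.65 times the trend. On simulated counts this test recovered 70.2% of genes that were given a far larger dispersion than the others, so smaller excesses could be missed. Tpi1, Pgk1, Hk1os, Pitrm1, Spsb2 and Iffo1 had too few counts for that test.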

How the data were processed

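The deposited values were raw counts of fragments per gene in 4 tables, with the exon length of each gene. The authors used featureCounts 1.4.6-p4 on paired reads over exons, per the file headers, in GENCODE mouse release 13 on mm10, with strand setting 1 and both ends required to map. The headers name STAR in the input file, and neither trimming nor kit is given in the sources used here. Counts were not normalised.

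CPM and TPM were computed here from these deposited counts and lengths. Symbols came from GENCODE release 21 by identifier, for 50376 of 50600 genes. Exon overlaps were found with bedtools 2.31.1, and near-identical copies with BLAST 2.17.0. A pair was a protein-coding gene and the opposite-strand gene with the largest exon overlap. Pairs with a summed mean of at least 10 counts per library were fitted with edgeR 4.0.16 in R 4.3.3 (quasi-likelihood, library as block, offset of exon length and library total), adjusted over all 3410 pairs. Sign-flip permutations were exact and two-sided over 16 sign patterns, with 0.5 counts added per gene, and level differences used 0.1 TPM as pseudocount. Spread used an intercept-only edgeR fit after filterByExpr with TMM factors. On simulated pairs at these summed counts, 90.0% of log2 differences of 2 and 100% of those of 4 were recovered. The simulation used 1 fixed dispersion and split the counts of a pair by exon length before the change. Most simulated pairs did not differ, whereas most tested pairs did, so these rates need not hold for the pairs here. Limma 3.58.1 and DESeq2 1.42.0, other scalings, filters and leaving out each library were tried as alternatives. The named genes were every member, genes overlapping their exons, their other isoforms, mutases and enolases, and the 8 listed genes of glucose use with the highest TPM; nearest neighbours, Hif1a, Slc2a1, Pgam5, Gm5069 and the opposite genes of listed genes were chosen after their values were seen. Some genes of these lists are not reported here. Members and lists were chosen with earlier results of these data known.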

Additional observations from a re-analysis of the deposited data

Results flagged for a closer look

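Of 40 sets of 4 values tested for a sample far from the others, 5 had a gap, relative to the range, above the 95% limit of Dixon's test. For normally distributed values chance flags about 1 in 20. A gene with counts in only 1 library always passes that limit, so this rate does not hold for Spsb2, Hk2, Pklr and Ldhc. All 5 were genes with few counts. Iffo1, opposite to Gapdh, had 2.96 TPM in replicate 2, above the other 3 libraries. Spsb2, opposite to Tpi1, had 0.840 TPM in replicate 1 from 2 counts and 0 elsewhere. The other isoforms were 0 in 3 libraries each: Hk2 had 0.128 TPM in replicate 3, Pklr 0.237 in replicate 3 and Ldhc 1.32 in replicate 1.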

How the results depend on the processing

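The pairs of Gpi1, Aldoa, Pfkp and Gapdh kept their direction and stayed past the threshold in every alternative that gave them a value. These were limma, DESeq2, no library block, no division by length, other filters and each library left out. Other scalings and the sum over opposite genes gave the same result, but could hardly change it. The scaling of a library cancels within a pair, and each of these enzymes has 1 opposite gene. The pair of Hk1 did not keep its direction: its log2 difference was -1.69 without division by exon length, and 0.39 to 1.27 with 1 library left out. Without 1 library, 2 to 3 enzyme pairs had the opposite gene higher and 2 lower, the summed level was 391 to 423 CPM for the enzymes and 2599 to 2816 CPM for the opposite genes, and 0 members varied above the trend, while 7 to 10 of all genes did. With totals that lack the ribosomal RNA locus and mitochondrial genes, the summed levels moved to 462 CPM for the enzymes and 3055 CPM for the opposite genes. Ranks without division by length moved for Hk1, Gpi1, Aldoa, Pkm, Ldha, Pitrm1 and Iffo1. No paired analysis was possible because there is 1 group, so replicate numbers pair no samples across groups; the genes of a pair were compared within each library, and without the library as a block the same numbers of enzyme pairs passed, 2 higher and 2 lower. Depth limits Tpi1, Pgk1, Spsb2 and Hk1os, and also Pitrm1 and Iffo1, the lower genes of the pairs of Pfkp and Gapdh.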
